A study of Mus musculus with 4 samples.

Results

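Pparg, Cfd (also called adipsin) and 7 other genes best known from fat cells were followed in mouse liver. The genes, Pparg, Adipoq, Cfd, Cd36, Fabp4, Vldlr, Plin1, Plin4 and Car3, were chosen by name in a list drawn up when earlier results of these arrays were known. Their levels below are therefore a description, and no test was made on them. Every probe whose transcript accession belonged to one of these genes was used. This gave 12 probes for 9 genes, of 56605 probes and 23462 genes on the arrays. Cfd, Fabp4 and Vldlr had 2 probes each and the others 1.

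Liver RNA of male C57BL/6 mice was measured on 4 one-colour Agilent arrays, 1 for each combination of genotype and diet. F/F mice carried floxed Lpiat1 (gene symbol Mboat7) and no Cre, and LKO mice carried the same floxed gene with Cre under the albumin promoter (Alb-Cre), so that hepatocytes lose the gene and other liver cells keep it. Diets were chow (CE2) or high fat diet (HFD-60, HFD), given from 6 weeks of age for 18 weeks, and the mice were 24 weeks old. Lpiat1 encodes an acyltransferase that loads arachidonic acid onto phosphatidylinositol. Whether each array was given RNA of a single mouse or of pooled mice is not stated in the sources used here. With 1 array per condition no difference has a replicate check, so none has a p-value and differences between mice are not known. A level is the log2 of the processed signal minus the log2 of the 75th percentile of that array, and a difference is the difference of 2 such levels. Signals are given before this scaling. Levels of different probes are not compared, because probes differ in brightness for reasons other than RNA amount. The technical spread, taken from probes spotted more than once on an array as the SD of the difference of 2 spots, was 0.096 (log2, 295 probes) for probes well above background. It was 0.33 where the signal was under 100 (14 probes) and 0.076 where it was 100 or more (285 probes). Where no value is given, the technical spread is 0.096. Because both spots lie on 1 array, this spread leaves out differences between arrays, between RNA preparations and between mice. A difference larger than it is therefore not shown to be reproducible.

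The arrays had similar signal over background, with 53.0 to 57.0% of spots well above it, and all lay on 1 slide read in 1 scan. The targeted gene Mboat7 had 1 probe, with a log2 difference of -0.30 between LKO and F/F on chow and -0.27 on HFD. Where that probe lies relative to the deleted exons was not determined here, so it is a weak check of the labels. All 12 hepatocyte markers were well above background on every array. In a bulk tissue, fewer cells of a type and less RNA per cell cannot be told apart.

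PPARγ, encoded by Pparg, is a nuclear receptor that pairs with a retinoid X receptor and turns on genes of fatty acid uptake, triglyceride formation and lipid droplet coating. It is the central regulator of fat cell formation, and its level in hepatocytes is known to go up in fatty liver. Several of the genes described here are known PPARγ targets in fat cells, and some (Fabp4, Cd36) are also made by macrophages and endothelial cells.

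These genes did not move as a group. On HFD, 5 of the 9 were at least 2-fold higher in F/F, namely Vldlr, Cfd, Cd36, Pparg and Fabp4, as were 5.21% of all genes, whereas the fat cell hormone gene Adipoq was 3.16-fold lower (2.94% of all genes were at least 2-fold lower). In LKO, Cd36, Fabp4 and Vldlr were at least 2-fold higher on HFD (8.12% of all genes), whereas Pparg and Adipoq differed between the diets by less than the technical spread and Cfd was 4.68-fold lower (4.07% of all genes at least 2-fold lower). Adipoq and Plin1, defining markers of fat cells, were dim and were brightest on the F/F chow array. Plin1 was well above background on that array only. The name "adipocyte-like" therefore covers genes of different behaviour, and the list of other fat cell markers given below had a median difference of 0.02 between diets in F/F.

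**Figure D1:**
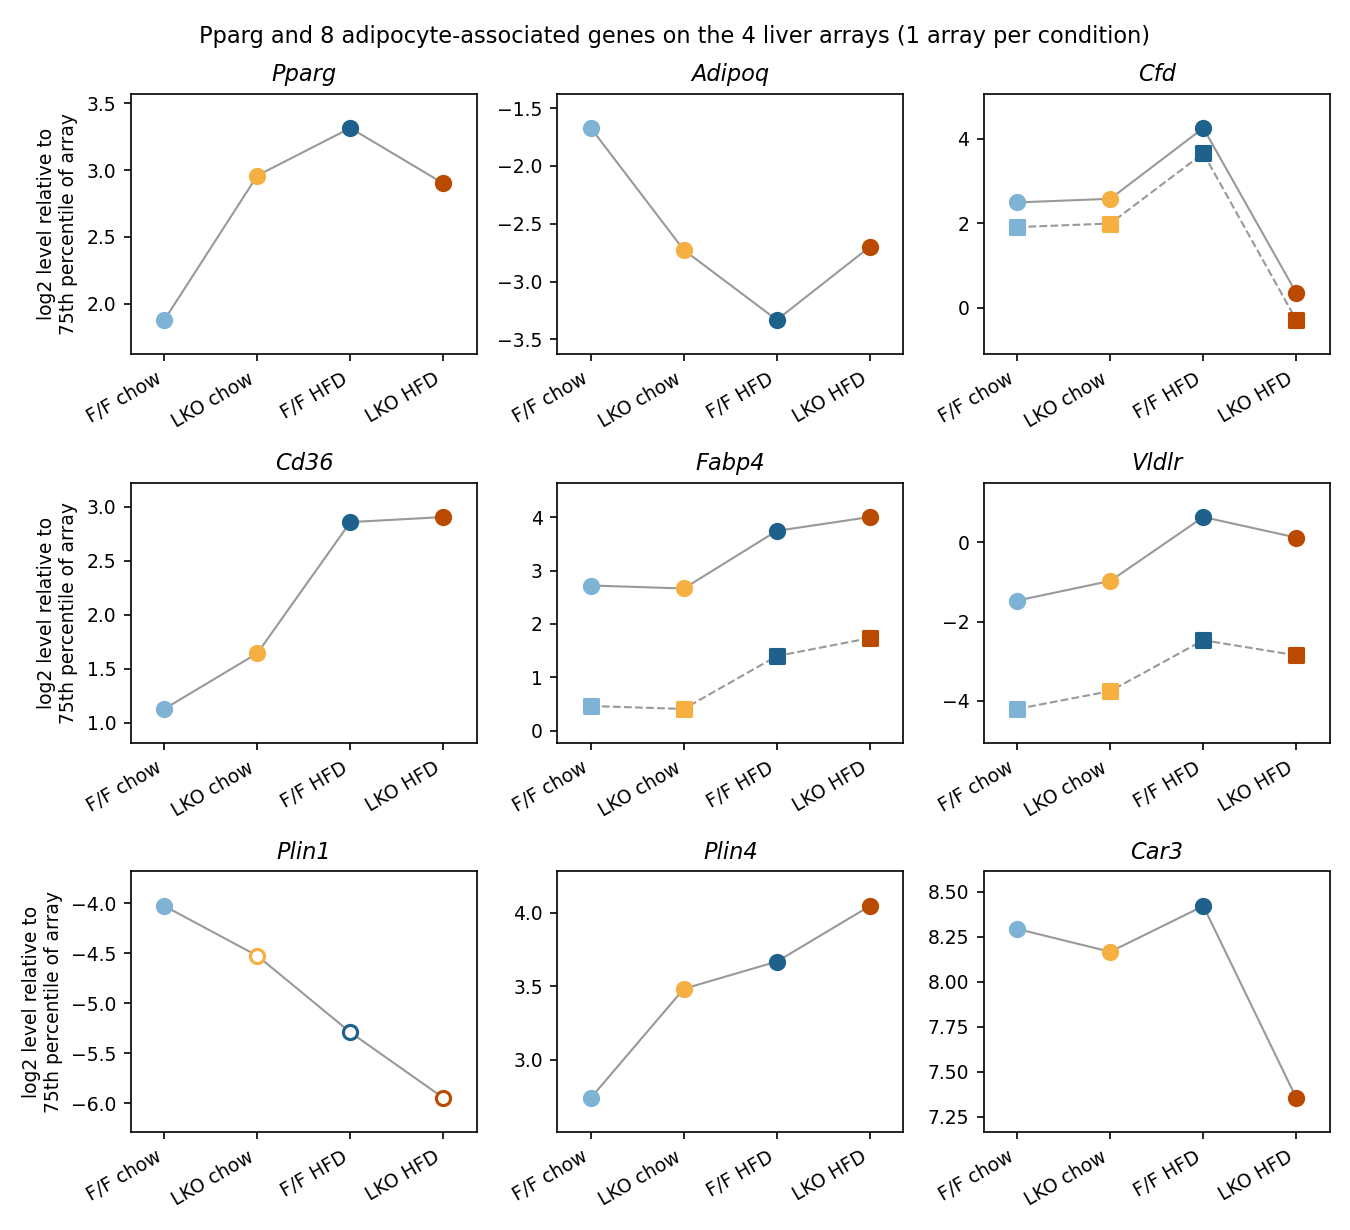
Log2 level relative to the 75th percentile of the array (vertical axis, its range differing between panels) on the 4 arrays (horizontal axis), 1 panel per gene. Circles and full lines are the probe that stands for the gene, squares and dashed lines the second probe of Cfd, Fabp4 and Vldlr, and open circles in the Plin1 panel are values not well above background. Pparg was lowest on F/F chow, Cfd was highest on F/F HFD and lowest on LKO HFD, and Cd36, Fabp4, Vldlr and Plin4 were higher on both HFD arrays than on both chow arrays.

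To show the sequence next to the levels, the 250 bases before each annotated start were taken from the RefSeq promoter table (assembly GRCm38.p6), which held 10 promoters of 7 of the genes. Fabp4 and Car3 had no entry. PPARγ with its partner binds a direct repeat of AGGTCA with 1 base between the copies, and C/EBP factors, which act with PPARγ in fat cells, bind sequences around the core TTNNGCAA. Both strands were searched. At least 1 AGGTCA motif occurred in 3 of the 10 promoters, against 14.0% of 32851 mouse promoters. The repeat with up to 2 mismatches occurred in 1 of 10 (Cd36), against 3.24% of all promoters, and an exact repeat in none of the 10, against 0.0335%. The C/EBP core was found in 3 of 10 (9.56% of all promoters). An AGGTCA motif within a repeat counts under both. A match describes letters and is not a binding site.

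The promoters of Pparg are printed because the table lists 3 starts whose letters differ in these motifs. All lie on the plus strand, upstream start chr6:115360894-115361143, middle start chr6:115362099-115362348 and downstream start chr6:115421816-115422065. Capitals mark the AGGTCA motif of the upstream and middle promoters, whose first base is 28 and 9 bases before the start, and the 2 C/EBP cores in the downstream promoter, 215 and 16 bases before it. Which of these transcripts the array probe reads was not determined here.
Pparg upstream start: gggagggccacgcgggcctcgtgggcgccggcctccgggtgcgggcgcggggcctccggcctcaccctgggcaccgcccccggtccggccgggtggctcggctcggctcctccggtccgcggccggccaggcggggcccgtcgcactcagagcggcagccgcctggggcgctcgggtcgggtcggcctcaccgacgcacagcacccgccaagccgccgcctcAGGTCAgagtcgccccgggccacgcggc
Pparg middle start: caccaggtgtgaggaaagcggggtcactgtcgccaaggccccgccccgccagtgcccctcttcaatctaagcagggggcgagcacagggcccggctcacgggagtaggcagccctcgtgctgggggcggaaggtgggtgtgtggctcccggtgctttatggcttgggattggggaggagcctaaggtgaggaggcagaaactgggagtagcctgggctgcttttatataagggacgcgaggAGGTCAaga
Pparg downstream start: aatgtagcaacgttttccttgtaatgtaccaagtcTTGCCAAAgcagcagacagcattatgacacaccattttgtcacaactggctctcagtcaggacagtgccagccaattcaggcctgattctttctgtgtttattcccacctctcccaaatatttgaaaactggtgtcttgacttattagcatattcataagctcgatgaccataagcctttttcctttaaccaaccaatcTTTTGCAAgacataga

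The promoter of Cd36 (chr5:17835897-17836146, gene on the minus strand) is the one with a repeat. Capitals mark an AGGTCA motif whose first base is 228 bases before the start and the direct repeat with 2 mismatches, 63 bases before it, both read on the strand opposite to the gene. The promoter of Cfd (chr10:79890603-79890852, plus strand) is printed because Cfd differed most between the genotypes on HFD. It held none of the 3 motifs and so has no capitals.
Cd36: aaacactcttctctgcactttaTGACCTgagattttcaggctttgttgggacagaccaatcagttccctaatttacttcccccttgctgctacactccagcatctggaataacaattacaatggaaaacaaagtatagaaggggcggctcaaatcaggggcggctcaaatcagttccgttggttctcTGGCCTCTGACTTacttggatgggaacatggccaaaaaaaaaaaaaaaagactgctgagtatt
Cfd: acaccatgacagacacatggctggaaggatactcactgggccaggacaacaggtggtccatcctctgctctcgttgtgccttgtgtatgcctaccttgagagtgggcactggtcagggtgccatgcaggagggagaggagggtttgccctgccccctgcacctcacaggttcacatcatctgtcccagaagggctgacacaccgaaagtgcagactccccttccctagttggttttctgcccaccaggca
Of the other promoters, 2 cores were found for Plin1 and 1 for the first listed start of Vldlr, and none of the motifs for Adipoq, Plin4 or the second start of Vldlr.

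The receptor Pparg was the only one of the 9 genes at least 2-fold higher in LKO on chow, where 1.11% of all genes were. On chow its signal was 815 (F/F) and 1659 (LKO), and on HFD 2619 (F/F) and 2207 (LKO). Signals of other genes are listed in this order below where no array is named. F/F chow was lowest and F/F HFD highest, and both LKO arrays lay between them at nearly the same level. On chow, Pparg was 2.12-fold higher in the LKO liver (log2 difference 1.08), which ranked it 62 from the highest among 14185 genes measured on both chow arrays. On HFD it was lower in LKO, by a log2 difference of -0.41. The diet difference was 1.44 in F/F and -0.06 in LKO, the latter within the technical spread and of either sign depending on the scaling. The genotype difference on HFD minus that on chow was -1.50.

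Of 13980 other genes well above background on all 4 arrays, 48 had a profile within a distance of 0.5 of that of Pparg (Euclidean distance of the 4 log2 levels, each gene centred on its mean). The nearest were Wnt5b (0.06), Dntt (0.17) and Tmem209 (0.22). The profile of lowest level on F/F chow and highest on F/F HFD, each by more than the technical spread, was met by 2 of the 8 genes measured on every array (Pparg and Vldlr) and by 3.28% of 13981 genes. This profile was described after the values were seen.

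Among 26 other PPARγ target genes, 4 were, like Pparg, lowest on F/F chow and highest on F/F HFD, among them Cidea, Cidec and Mogat1. The distances of these 3 to Pparg were 2.07, 0.74 and 1.17, so none lay within 0.5 of it. This distance counts the size of the differences as well as their order. The diet difference in F/F was 4.24 for Cidea and 1.44 for Pparg. Cidea, a protein of the droplet surface that favours droplet growth and is typical of brown fat, had signals of 296 and 2619 in F/F and LKO on chow and of 6616 and 2456 on HFD. It was therefore higher in LKO on chow (log2 difference 3.20) and lower in LKO on HFD (-1.60). Cidec, its relative that fuses droplets in white fat, had 2533, 5913, 14847 and 11759 (1.28 on chow and -0.50 on HFD). Mogat1, an enzyme of triglyceride synthesis, had 169, 353, 1298 and 986 (1.12 and -0.56). In all 3 the sign of the genotype difference turned with the diet, as for Pparg.

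Other targets had other profiles. Fabp5, a fatty acid binding protein of skin and macrophages, was higher in LKO on both diets (1.34 on chow, 1.52 on HFD) and nearly equal between diets, with 2036, 4949, 2124 and 6820. Lpl, lipoprotein lipase, was highest on LKO HFD, with 446, 463, 976 and 2828. Pdk4, a fasting-induced kinase that restrains glucose oxidation, was highest on F/F chow, with 1709, 821, 428 and 878. G0s2, an inhibitor of lipolysis, was lowest on LKO HFD, with 5188, 7243, 3133 and 1821. As a list, the 26 targets had median differences of -0.25 (LKO minus F/F on HFD), 0.06 (LKO minus F/F on chow), 0.04 (HFD minus chow in F/F) and -0.36 (HFD minus chow in LKO), where all genes had -0.03, 0.00, -0.02 and -0.07. At least 2-fold higher and lower were 2 and 1, 4 and 1, 4 and 1, and 3 and 1 of them in the same order. Of all genes, 2.36% and 1.91%, 1.11% and 1.03%, 5.21% and 2.94%, and 8.12% and 4.07% were. The same shares stand beside the counts of the other lists below. Under quantile normalization, the medians on HFD against chow were 0.21 for F/F and -0.07 for LKO.

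**Figure D2:**
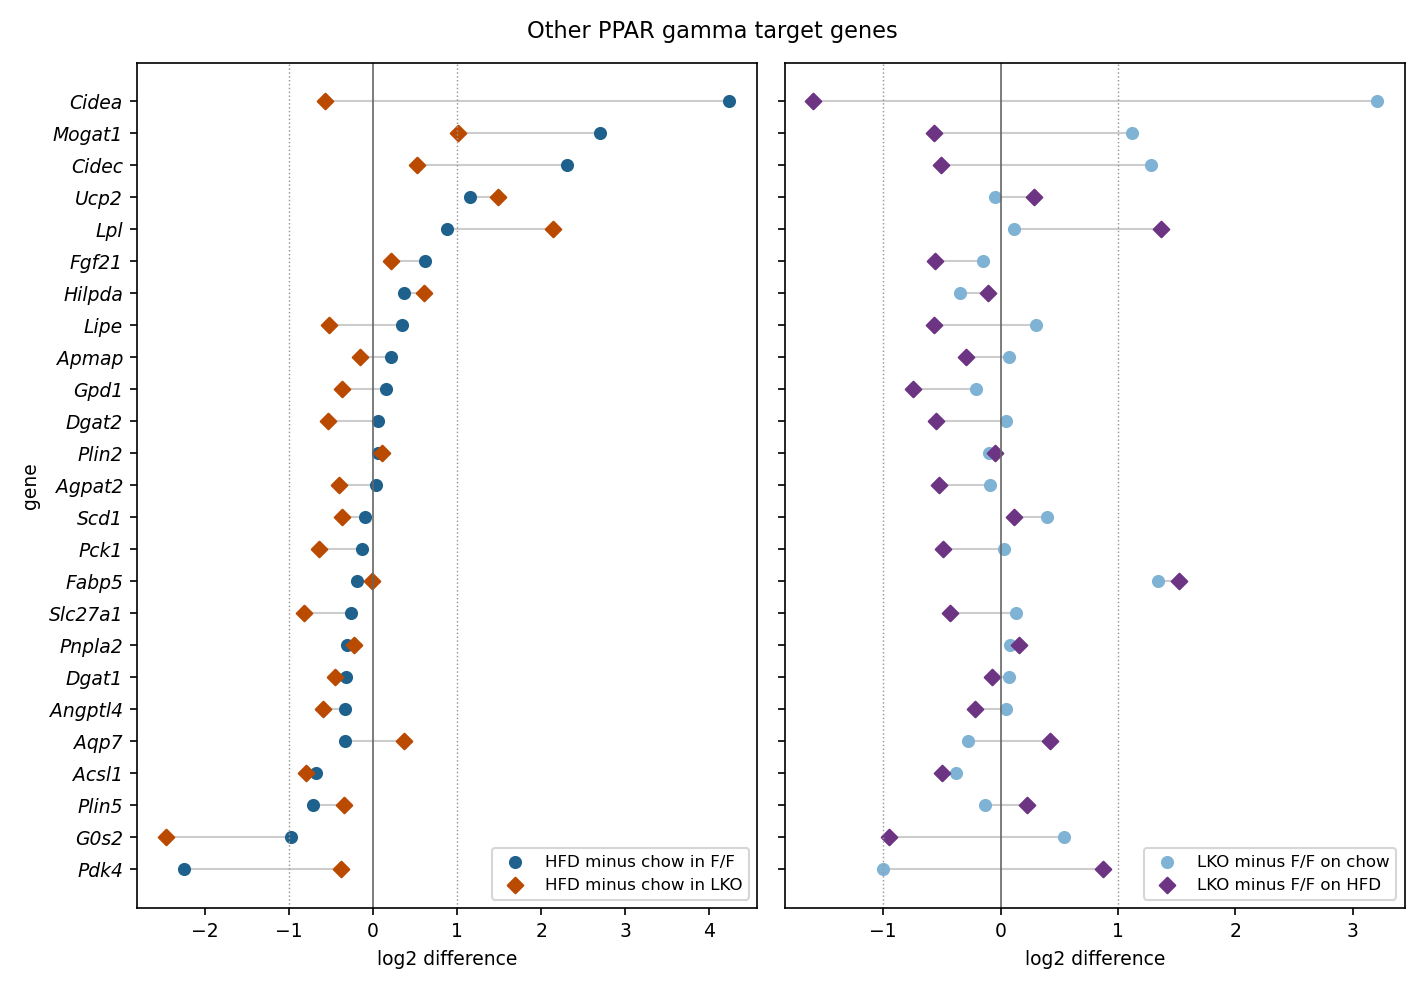
Log2 difference (horizontal axis) of 25 of the 26 other PPARγ target genes (vertical axis, sorted by the diet difference in F/F), 1 array per condition, with dotted lines at 2-fold. The left panel gives HFD minus chow in F/F (circles) and LKO (diamonds), the right panel LKO minus F/F on chow (circles) and HFD (diamonds), and a grey line joins the values of a gene. Cidea, Mogat1 and Cidec were higher in LKO on chow and lower in LKO on HFD, and Fabp5 was higher in LKO on both diets.

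Of 29 genes that act with PPARγ or regulate fat cell formation, none was at least 2-fold higher or lower between the genotypes on either diet, and the medians were -0.12 on HFD and -0.05 on chow. Rxra, the main retinoid X receptor of liver, differed by -0.30 and -0.10. Rxrg, another retinoid X receptor, was higher on HFD in F/F (202 against 617, log2 difference 1.37). Zfp423, a zinc finger factor of preadipocytes, was not well above background on F/F chow and was at least 4.55-fold higher on F/F HFD. It was also higher on HFD in LKO (1.15). The medians between diets were 0.05 in F/F and -0.05 in LKO. Ebf1 and Ebf2, early factors of the fat lineage, were well above background on no array, Klf5 and Prdm16 on 2 and Zfp423 on 3.

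Cfd encodes complement factor D, the protease that cleaves factor B and is secreted mainly by fat cells. On chow its signal was 1246 (F/F) and 1272 (LKO), and on HFD 5005 (F/F) and 377 (LKO). The chow arrays differed by 0.09 (log2), near the technical spread, F/F HFD was highest and LKO HFD lowest. The second probe gave the same order in the HFD arrays and the same closeness on chow, with 832, 848, 3309 and 242. On HFD, Cfd was 14.9-fold lower in the LKO liver by the brighter probe (-3.90) and 15.3-fold lower by the other (-3.94). The former was the lowest of 14677 genes measured on the HFD arrays. HFD against chow gave 1.76 in F/F (rank 124 from the highest of 14282) and -2.23 in LKO (rank 51 from the lowest of 14261). The genotype difference on HFD minus that on chow was -3.99, rank 3 from the lowest of 13981 genes. No gene had a profile within 0.5 of that of Cfd, and the nearest were Aqp4 (1.07), Lamb3 (1.07) and Slc26a4 (1.12). Within 0.5 of Fabp4 lay 707 genes, but the 4 levels of Fabp4 spanned 1.34 and those of Cfd 3.90. The distance grows with the size of the differences, so these counts do not compare the shapes of the profiles.

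The complement genes around factor D did not share this profile. None of 11 was 2-fold higher or lower between the genotypes or between diets in F/F, with medians of -0.06 (LKO minus F/F on HFD), -0.07 (on chow) and -0.24 (HFD minus chow in F/F). In LKO the median on HFD was -0.37, and C1qa, made by macrophages, was 2-fold higher (1.18). C3, the central complement protein, differed by -0.01 between the genotypes on HFD. The median in LKO moved to -0.08 under quantile normalization.

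Car3 encodes carbonic anhydrase III, a cytosolic enzyme abundant in fat, muscle and male rodent liver. On chow its signal was 69603 (F/F) and 61323 (LKO), and on HFD 90245 (F/F) and 48402 (LKO), so it shared with Cfd the highest value on F/F HFD and the lowest on LKO HFD. On the main scale the LKO HFD array stood apart from the others, which lay close together. On HFD it was 2.09-fold lower in LKO (-1.07), but under quantile normalization the difference was -0.90 and no longer 2-fold. Its diet difference was 0.13 in F/F and -0.81 in LKO. Under quantile normalization these were 0.41 and -0.34, so the F/F HFD array also lay apart from the chow arrays. The profile of Cfd and Car3 was met by 2.01% of 13981 genes. Hsd3b2 (0.04), Eqtn (0.06) and Pde6c (0.10) were nearest to Car3. Among 14 other carbonic anhydrases, the median on HFD was -0.51 (LKO minus F/F), and 2 were at least 2-fold lower, of which Car1, a red cell enzyme, was measured on both arrays (-1.27). On chow the median was -0.24, with none past 2-fold. Between diets, the medians were -0.16 in F/F and -0.53 in LKO, with 2 higher and 1 lower, and 1 higher and 2 lower. Car4, Car10 and Car12 were well above background on no array, Car6 and Car13 on 1 and Car11 on 3.

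Cd36, a membrane receptor that takes up long-chain fatty acids, had signals of 484 (F/F) and 666 (LKO) on chow, and of 1907 (F/F) and 2213 (LKO) on HFD. Both HFD arrays were above both chow arrays and differed from each other by less than the technical spread (log2 difference 0.05). HFD against chow gave 3.32-fold in F/F (1.73) and 2.40-fold in LKO (1.26). On chow it was higher in LKO, by 0.52. The nearest profiles were those of 9030619P08Rik (0.10), Il4i1 (0.15) and Pcdh17 (0.15), with 176 genes within 0.5.

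Fabp4, the fatty acid carrier of fat cells, also made by macrophages and capillary endothelium, had signals of 1462 (F/F) and 1353 (LKO) on chow, and of 3526 (F/F) and 4739 (LKO) on HFD, by its brighter probe. The chow arrays were equal within the technical spread (-0.06), and LKO HFD was highest. HFD against chow was 1.02 (F/F) and 1.34 (LKO), and the genotype difference on HFD was 0.26. The second probe had 306, 283, 694 and 985, and its F/F diet difference of 0.94 fell short of 2-fold. Armcx2 (0.03), Fbxl7 (0.03) and Cdc42ep3 (0.08) were nearest. Of 8 other fatty acid binding proteins, Fabp5 is given above. Fabp2, the intestinal form, had its highest signal on F/F HFD (41414) and was lower in LKO there (-1.10). The medians of the 8 were -0.26 (LKO minus F/F on HFD), 0.35 (on chow), 0.53 (HFD minus chow in F/F) and -0.09 (in LKO), with 1 higher and 2 lower, 2 and 0, 2 and 0, and 2 and 1 past 2-fold. The F/F median was 0.03 with normexp background correction. Fabp9 was well above background on no array, Fabp6 on 1 and Fabp12 on 3.

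Vldlr, a receptor for triglyceride-rich lipoproteins, had signals of 80.0 (F/F) and 108 (LKO) on chow, and of 409 (F/F) and 321 (LKO) on HFD. All 4 levels differed from each other by more than the technical spread. HFD against chow gave 4.31-fold in F/F (2.11, rank 66 from the highest of 14282) and 2.13-fold in LKO (1.09). Between the genotypes it was higher in LKO on chow (0.50) and lower in LKO on HFD (-0.52), the same turn of sign as Pparg. The second, dimmer probe had 12.0, 15.8, 47.5 and 40.95 in the same order, with 1.73 (F/F) and 0.90 (LKO), the latter under 2-fold. Normexp background correction gave 1.47 and 0.84. Rufy4 (0.05), Gm33447 (0.09) and Mycn (0.11) were nearest, with 44 genes within 0.5. Of 12 other lipoprotein receptors and lipases, Lpl and Sorl1, a sorting receptor, were at least 2-fold higher on HFD in LKO (2.14 and 1.69). The list's medians were -0.16 (LKO minus F/F on HFD), 0.01 (on chow), 0.24 (HFD minus chow in F/F) and -0.17 (in LKO, 0.13 with normexp). Lpl was the only one of them past 2-fold between the genotypes. Lrp8 was well above background on no array and Lrp2 on 2.

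The perilipins coat lipid droplets, Plin1 in fat cells and Plin4 on small new droplets. The signal of Plin4 was 1480 (F/F) and 2383 (LKO) on chow, and 3343 (F/F) and 4881 (LKO) on HFD. Each step in this order was larger than the technical spread, and it was the only one of the 8 genes higher in LKO on both diets by more than that spread (0.74 on chow and 0.38 on HFD). Its diet difference was 0.93 (F/F) and 0.56 (LKO), so that none of the 4 differences reached 2-fold. Sp100 (0.05), Gja5 (0.09) and Fdps (0.09) were nearest, with 661 genes within 0.5. Plin1 had 13.6, 9.27, 6.73 and 4.80 and was well above background on F/F chow only. Against that array it was at least 1.41-fold lower on LKO chow and at least 1.93-fold lower on F/F HFD, and it has no value for the other comparisons. Of the other perilipins, Plin3 had the largest diet difference (0.94 in F/F, 0.72 in LKO), and Plin2, a droplet marker of fatty liver, differed by 0.06 and 0.11. None of the 3 passed 2-fold, and their medians were 0.23 and -0.10 for LKO minus F/F on HFD and chow and 0.06 and 0.11 for HFD minus chow in F/F and LKO. The last of these was 0.52 under quantile normalization.

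Adipoq encodes adiponectin, a hormone made by fat cells. On chow its signal was 69.6 (F/F) and 32.2 (LKO), and on HFD 26.1 (F/F) and 45.5 (LKO), all well above background but dim. F/F chow was highest, and LKO chow and LKO HFD differed by less than the technical spread (0.03). The genotype difference was -1.05 on chow and 0.63 on HFD, and HFD against chow in F/F gave -1.66. Normexp background correction gave -0.41, 0.16 and -0.74 for these. Ehhadh (0.17), Gm527 (0.24) and Tanc2 (0.27) were nearest, with 30 genes within 0.5. The receptors Adipor1 and Adipor2 differed by 0.04 and -0.47 between the genotypes on HFD. Of 10 receptors and partners, 1 was past 2-fold on chow (C1qtnf9) and none on HFD. C1qtnf9, an adiponectin relative, had a signal of 63.1 on F/F chow and was not well above background on the other arrays. The same gene was the one past 2-fold in F/F between diets, and in LKO it was C1qtnf3 (-1.18). The medians were -0.06 (LKO minus F/F on HFD), 0.14 (on chow), -0.02 (HFD minus chow in F/F) and -0.10 (in LKO).

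Seen by comparison, the counts of these 9 genes past 2-fold stand beside the share of all genes. On HFD, none of the 8 genes measured was at least 2-fold higher in LKO (0) and 2 were lower (Cfd, Car3), where 2.36% of all genes were higher and 1.91% lower. On chow, 1 of 9 was higher (Pparg) and 1 lower (Adipoq), with a background of 1.11% and 1.03%. HFD against chow in F/F had 5 of 9 higher and 1 lower, against 5.21% and 2.94%. In LKO, 3 of 8 were higher and 1 lower, against 8.12% and 4.07%. Because the genes were chosen with these contrasts known, nothing is read from these counts. Their medians were -0.18, 0.09, 1.02 and 0.30 in the order of the comparisons, against -0.03, 0.00, -0.02 and -0.07 for all genes. Both HFD arrays above both chow arrays was the profile of 4 of the 8 genes (Cd36, Fabp4, Vldlr, Plin4) and of 21.8% of 13981 genes.

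**Figure D3:**
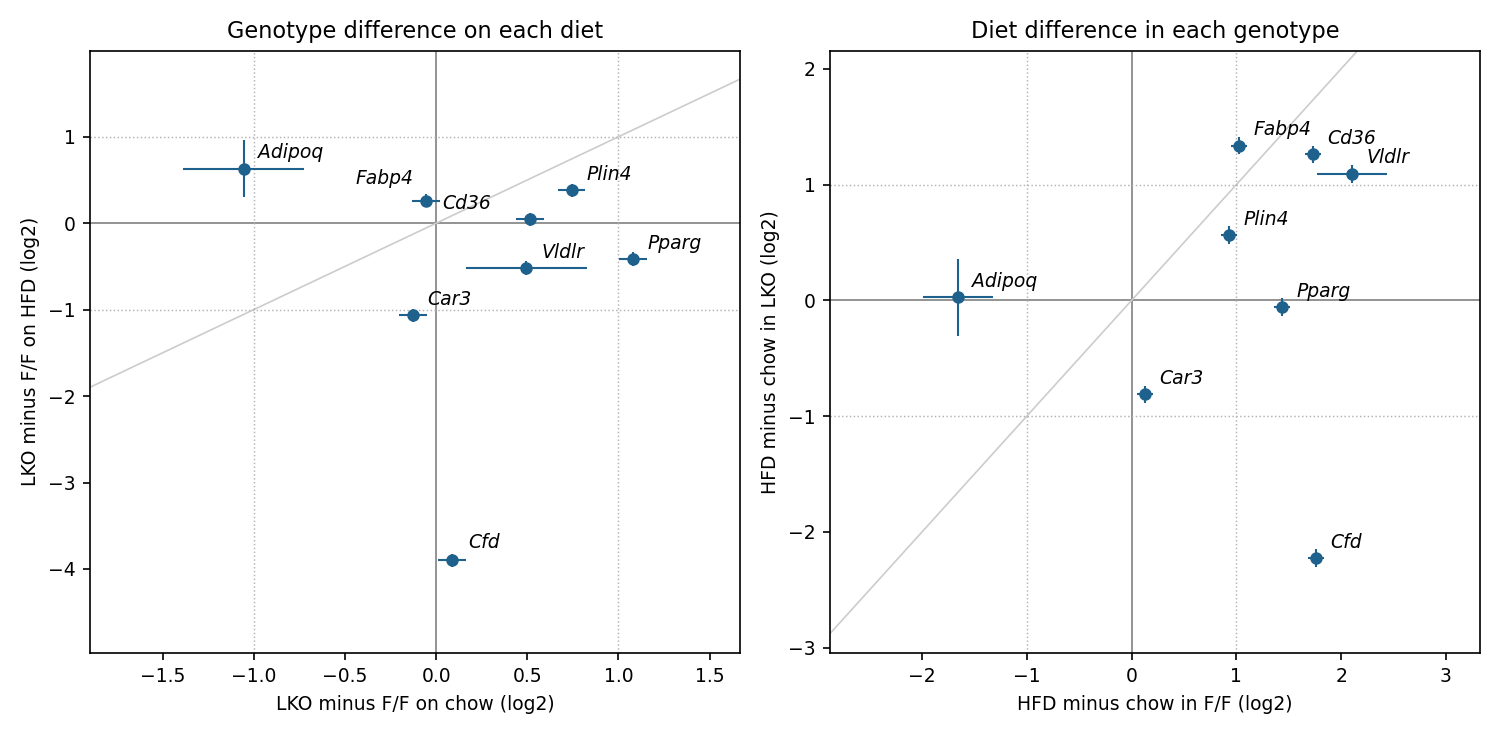
Log2 differences of the 8 genes measured on every array. The left panel sets LKO minus F/F on chow (horizontal) against that on HFD (vertical), and the right panel HFD minus chow in F/F against LKO. Bars are the technical spread of replicate spots, 0.33 where a signal of the comparison was under 100 (Adipoq and, with F/F chow, Vldlr) and 0.076 otherwise, which leaves out differences between mice, dotted lines mark 2-fold and the grey slanted line equal differences. Cfd lies far below the others in both panels, Pparg and Vldlr are higher in LKO on chow and lower on HFD, and on the right Fabp4 lies above the slanted line and Cd36 below it.

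Other fat cell markers were examined beside these genes. Of 20, 12 were well above background throughout, and Acvr1c, Arxes1, Cav1 and Slc7a10 on none, Nnat on 1, Trarg1 and Ucp1 on 2 and Aoc3 on 3. Their medians were -0.15 (LKO minus F/F on HFD), 0.07 (on chow), 0.02 (HFD minus chow in F/F) and -0.48 (in LKO), with 0 higher and 1 lower, 2 and 1, 3 and 2, and 2 and 1 past 2-fold. The F/F median was -0.16 with normexp. Their summed level, relative to the 75th percentile, ranged from 20.4 (F/F chow) to 40.6 (F/F HFD), and without Cidea from 15.3 (LKO HFD) to 22.5 (LKO chow). On HFD in F/F, Cidea (4.24), Tmem45b (2.58), Mest (1.70) and Adrb3, the beta-adrenergic receptor of fat cells (0.92), were higher than on chow. Highest on F/F chow, the profile of Adipoq, were 2 of the 12 (Retn and Sncg), against 16.5% of 13981 genes. Retn, a hormone gene, had signals of 58.5, 45.8, 12.8 and 27.2 in the order above. Ucp1, the uncoupling protein of brown fat, was well above background on F/F chow (31.4) and LKO HFD (14.4) only. Lep, the leptin gene, lay between 210 and 238 on all arrays.

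Markers of other cells also moved between the arrays, and their part in the values above was not tested. The 16 macrophage markers had medians of 0.69 (LKO minus F/F on HFD), 0.10 (on chow), 0.85 (HFD minus chow in F/F) and 1.33 (in LKO), with 5 higher and 1 lower, 0 and 0, 7 and 0, and 10 and 2 past 2-fold. Their summed level ran from 123 on LKO chow to 255 on LKO HFD. The largest measured differences were those of Trem2 between diets (3.02 in F/F, 4.63 in LKO) and of Gpnmb between the genotypes on HFD (2.45). Marco was the 1 lower in LKO on HFD (-1.64). Marco (-1.32) and Timd4 (-1.12) were the 2 lower on HFD in LKO. Fabp4 and Cd36, which macrophages also make, were higher on the same HFD arrays. Between the genotypes on HFD, Fabp4 differed by 0.26 and Cd36 by 0.05, where the macrophage median was 0.69. On chow they differed by -0.06 and 0.52, where that median was 0.10. The 14 endothelial markers had 0.10, 0.08, 0.54 and 0.47, with 0 and 0 past 2-fold in the first 3 comparisons and 2 higher in the last, and a summed level of 62.8 to 84.2.

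The 14 blood cell genes had medians of -0.84 (LKO minus F/F on HFD), -0.01 (on chow), 0.997 (HFD minus chow in F/F) and 0.03 (in LKO). Their summed level was 346 on F/F HFD, where Cfd was highest, and 172 to 177 on the other arrays. Past 2-fold were 0 higher and 1 lower, 0 and 0, 5 and 0, and 1 and 1 of them. Of the 14, 3 were well above background on no array. The 18 exocrine pancreas genes had medians of 1.85, -0.92, -0.77 and 1.95, with 16 higher, 8 lower, 3 lower and 16 higher past 2-fold, and a summed level of 35.5 (F/F HFD) to 76.8 (LKO HFD). The first 3 of these medians have the signs of the differences of Adipoq. In the last comparison the median was 1.95, whereas Adipoq differed by only 0.03, within its technical spread. The 12 hepatocyte markers had -0.19, 0.02, -0.34 and -0.54, with 2 and 3 lower past 2-fold between diets in F/F and LKO and none past 2-fold between the genotypes. Under quantile normalization these medians were 0.00, -0.01, -0.07 and -0.10.

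**Figure D4:**
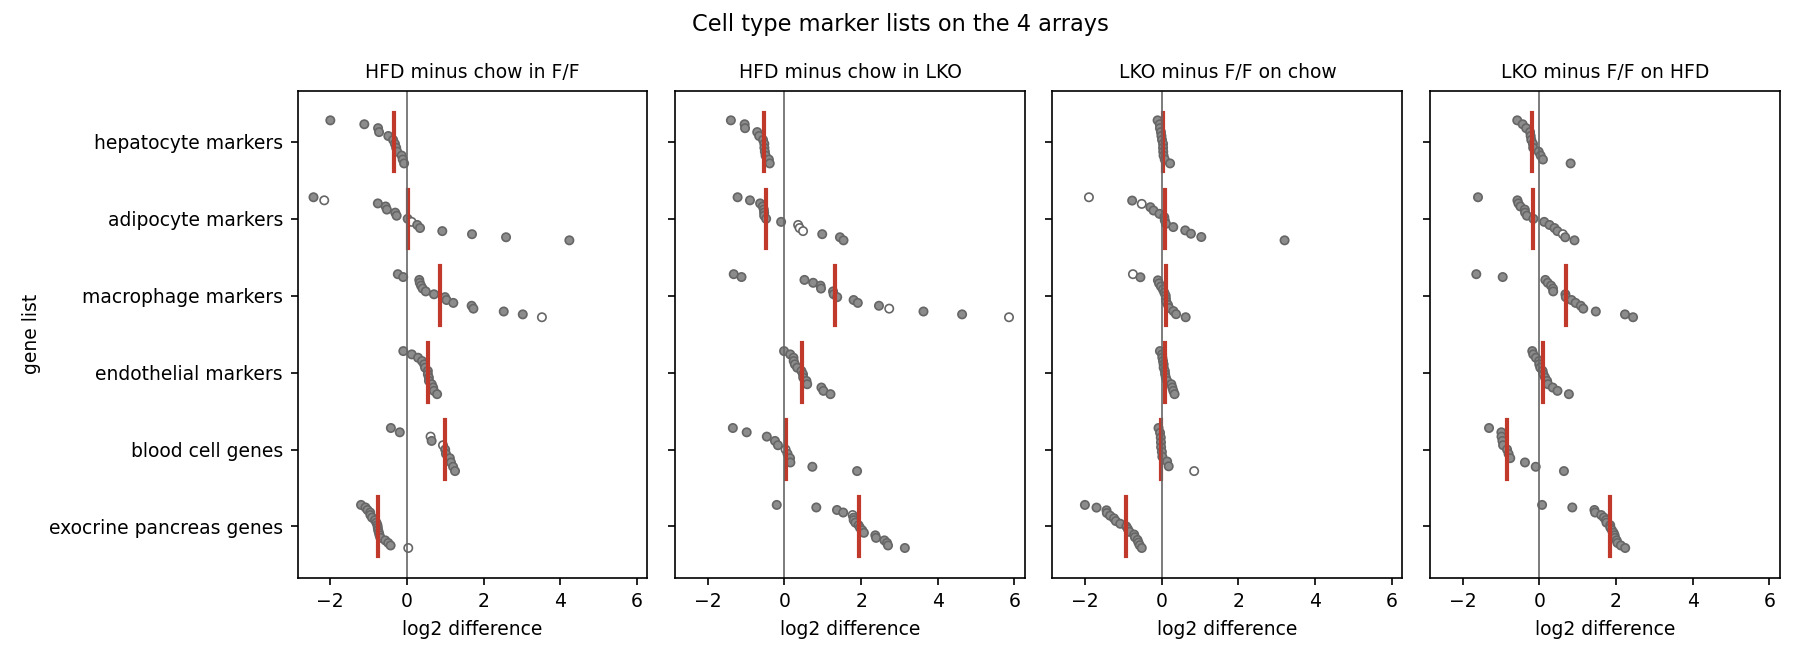
Log2 difference (horizontal axis, the same in all panels) of each gene in 6 marker lists (vertical axis) in the 4 comparisons, 1 array per condition. Each circle is a gene, open where the value is a bound because 1 of the 2 arrays was not well above background, and the red line is the median of the list. The exocrine pancreas genes lie above 0 in LKO on HFD (median 1.85) and below 0 in LKO on chow (-0.92), and the blood cell genes are higher on HFD in F/F (0.997). On this scale the hepatocyte markers are lower on HFD in both genotypes (-0.34 in F/F and -0.54 in LKO). Under quantile normalization these 2 medians were -0.07 and -0.10.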

How the data were processed

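The authors deposited the scanner output of 4 one-colour Agilent SurePrint G3 mouse arrays, written by Agilent Feature Extraction 12.0.3.1, with an intensity per spot after background subtraction, flags for outliers, saturation and signal well above background, and the median raw signals. They also deposited a table of intensity values, which for the 59305 spots that are not controls is the processed signal times 1 factor per array (on chow 2.60 (F/F) and 2.63 (LKO), on HFD 2.41 and 2.10). How these factors were made is not given in the sources used here. The medians of the table's columns were 34.5, 33.2, 36.1 and 36.0. The study's methods name an RNeasy kit and the labels a GenElute kit for the RNA.

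Processed signals were divided by the 75th percentile of their array (222, 213, 263 and 296 in the same order) and put on a log2 scale (numpy 2.4.6 and pandas 2.3.3 in Python 3.11.15). Spots of a probe were averaged without outlier spots, and no spot was saturated. Accessions were matched to symbols through RefSeq (GRCm38.p6), with 33767 of 56605 probes (59.7%) matched. The probe with the highest mean level stood for a gene. A probe not well above background on 1 array of a comparison has a bound against the dimmest signal called well above background there (7.80, 8.09, 8.35 and 7.81), and on both arrays no value. The array number limits the precision, and no p-value was computed. Different probes of a gene differed with an SD of 0.28 to 0.41 (log2).

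The genes, the 14 comparison lists (200 of 203 symbols matched) and the comparisons were chosen with earlier results of these data known. Named are all 9 genes, at most the 3 list genes with the largest difference in a comparison and those not well above background throughout, and the 3 genes of nearest profile. List genes named outside this rule (among them Pdk4, Mest, Adrb3, Sncg, Rxra, C3, Lep, Adipor1, Adipor2, Plin2, Timd4) were chosen after their values were seen, and so were the 4 profiles over the arrays. Some list genes that count in the medians are not reported here. The steps were tested on simulated data (F/F HFD with added noise, 200 of 23462 genes changed 4-fold), where 200 were recovered and 0 others called. The data came from 1 array and the changes were far past the 2-fold threshold. This therefore checks the steps and not the differences given above. Alternatives were normexp (offset 50, limma 3.58.1, R 4.3.3), quantile normalization, other percentiles, the deposited table, other filters, the mean of probes, other probes, and thresholds of 1.5-fold and 4-fold. Figures were drawn with matplotlib 3.10.9.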

Additional observations from a re-analysis of the deposited data

Results flagged for a closer look

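Of the 8 genes with a value in every comparison, 5 had differences of opposite sign in 2 groups, each larger than the technical spread of 0.096 (log2). For the dim signals of Adipoq, and of Vldlr on F/F chow, the spread was 0.33, which their main differences also exceeded. With normexp the genotype differences of Adipoq on HFD (0.16) and of Vldlr on chow (0.29) did not exceed 0.33. None of the 5 was tested, since each condition has 1 array. Pparg was higher in LKO on chow and lower in LKO on HFD, and its genotype difference on HFD minus that on chow was -1.50 (log2). Vldlr turned in the same direction, with -1.01, and Adipoq in the other, with 1.69. Cfd was higher on HFD in F/F and lower on HFD in LKO, with a difference of -3.99, and Car3 had the same signs, with -0.94. The F/F diet difference of Car3 was small (0.13), below the SD of 0.37 between different probes of a gene in that comparison.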

How the results depend on the processing

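No value of the 9 genes that exceeded the technical spread changed sign under any alternative, and 15 of 34 differences moved by more than 0.096 with normexp, 17 with the deposited table and 6 with quantile normalization. The deposited table shifted the median of all genes by 0.135 between diets in F/F and by 0.146 in LKO, and using no filter and no floor by -0.140 in LKO. The count of the 9 genes past the threshold changed as follows. The shares of all genes at these other settings are not given, so nothing is read from these counts. Higher in LKO on HFD were 0, and 1 at 1.5-fold. Lower in LKO on HFD were 2, and 1 with quantile normalization or at 4-fold. Higher in LKO on chow was 1, 2 at 1.5-fold and 0 at 4-fold. Lower in LKO on chow was 1, and 0 with normexp or at 4-fold. Higher on HFD in F/F were 5, 6 with the deposited table or at 1.5-fold, 4 with the mean of all probes and 1 at 4-fold. Lower on HFD in F/F was 1, 2 at 1.5-fold or with no filter, and 0 with normexp or at 4-fold. Higher on HFD in LKO were 3, 2 with normexp or with the mean of all probes and 0 at 4-fold. Lower on HFD in LKO was 1, and 2 at 1.5-fold or with no filter. The deposited table differs from the main scale by 1 factor per array, so it shifts all measured differences of a comparison by the same amount. The cause of the other changes was not tested, beyond the thresholds and filters themselves. Cfd in LKO against F/F on HFD stayed between -3.94 and -3.71. Within the spread, Pparg between diets in LKO ran from -0.06 to 0.09 and Adipoq from -0.17 to 0.17. No paired analysis was possible because each condition has 1 array. Dim signals (Adipoq, Plin1, Vldlr's second probe) limit the precision of those values.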
